A study of Mus musculus with 9 samples.

Results

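The 9 genes described here encode proteins of the lipid droplet and of triglyceride turnover: the perilipins Plin2, Plin3, Plin4 and Plin5, the lipases Pnpla2, Lipe and Mgll, and the acyltransferases Dgat1 and Dgat2. They were found by gene symbol among the 49315 genes of the deposited count table of whole mouse brain, and all 9 passed the filter on low counts that left 18492 genes for testing. They were picked with their values in old and young mice already known, so their differences between the ages are given as a description, and nothing is read from how many of them a test calls. Plin4 differed most between the ages, with a mean of 6.84 CPM (counts scaled to the size of the library) in young mice against 33.6 CPM in old ones and no overlap between them. Pnpla2 and Plin3 were modestly higher in old mice, and the other 6 genes had overlapping values with absolute log2 fold changes of at most 0.30.

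The young group comprised 5 male C57BL/6J wild-type mice, aged 3 months by the labels, and the old group 4 male C57BL/6J wild-type mice aged 33 months. All mice had free access to food and received no treatment, and polyA-selected RNA of the whole brain was sequenced. A whole brain mixes every cell type of the organ, so that fewer cells of a type and less RNA per cell cannot be told apart. Old replicate 2 was not analysed here.

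A lipid droplet stores neutral lipids, mainly triglycerides, in a core under a single layer of phospholipid, and perilipins bind this surface. Dgat1 and Dgat2 catalyse the last step of triglyceride synthesis. Release of the fatty acids runs stepwise: the adipose triglyceride lipase encoded by Pnpla2 removes the first fatty acid, hormone-sensitive lipase (Lipe) the next, and monoacylglycerol lipase (Mgll) the last. In the brain, droplets are known mostly from glia and ependymal cells, and Mgll is known above all for degrading an endocannabinoid.

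Plin4, Plin5 and Plin3 lie on the minus strand of chromosome 17 of GRCm38. Plin4 (ENSMUSG00000002831) spans chr17:56100591-56109803, Plin5 (ENSMUSG00000011305) chr17:56111601-56117596 and Plin3 (ENSMUSG00000024197) chr17:56277476-56292873. Only 1798 bases separate Plin4 from Plin5, whereas Plin5 and Plin3 are 159880 bases apart. Plin2 (ENSMUSG00000028494) is at chr4:86648386-86670060 on the minus strand. Of the enzymes, Pnpla2 (ENSMUSG00000025509) is at chr7:141455198-141460743 on the plus strand, Lipe (ENSMUSG00000003123) at chr7:25379527-25398710 on the minus strand and Mgll (ENSMUSG00000033174) at chr6:88724412-88828360 on the plus strand. Dgat1 (ENSMUSG00000022555) is at chr15:76502015-76511953 and Dgat2 (ENSMUSG00000030747) at chr7:99153658-99182719, both on the minus strand.

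Promoter windows of 250 bases before a RefSeq start (GRCm38.p6) were available for 7 of the 9 genes, with 10 windows in all. Those of Plin4 and Pnpla2 are shown because these 2 genes varied together between mice, and that of Plin5 because it is the nearest gene upstream of Plin4. A further Plin5 window, chr17:56117299-56117548, lies directly downstream of the one shown and is not printed. They are written from the far end to the base before the start, with matches to 6 short motifs in capitals.

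Plin4, chr17:56109783-56110032, minus strand: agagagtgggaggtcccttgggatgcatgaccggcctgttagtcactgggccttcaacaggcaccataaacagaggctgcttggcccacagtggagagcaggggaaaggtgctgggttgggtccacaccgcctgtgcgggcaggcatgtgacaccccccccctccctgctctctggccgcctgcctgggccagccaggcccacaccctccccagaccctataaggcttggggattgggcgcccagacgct

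Plin5, chr17:56117549-56117798, minus strand: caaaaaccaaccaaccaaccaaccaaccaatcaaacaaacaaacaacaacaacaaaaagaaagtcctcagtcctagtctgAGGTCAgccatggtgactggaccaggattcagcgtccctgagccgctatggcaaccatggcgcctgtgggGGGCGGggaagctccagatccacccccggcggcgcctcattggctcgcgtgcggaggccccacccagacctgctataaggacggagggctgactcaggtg

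Pnpla2, chr7:141454938-141455187, plus strand: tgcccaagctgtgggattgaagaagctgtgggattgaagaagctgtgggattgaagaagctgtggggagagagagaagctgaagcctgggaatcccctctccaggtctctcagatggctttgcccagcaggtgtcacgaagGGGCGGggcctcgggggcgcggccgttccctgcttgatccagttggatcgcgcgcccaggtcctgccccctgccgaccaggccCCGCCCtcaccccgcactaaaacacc

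The motifs were searched on both strands, and none of them occurred in the Plin4 window. The core motif of nuclear receptors, AGGTCA, was found 170 bases before the start of Plin5 and in 14.0% of all 32851 promoter windows of this length. The motif of the transcription factor SP1, GGGCGG, was found 100 bases before the start of Plin5, at 109 bases and, in reverse, at 26 bases before the start of Pnpla2, and in 32.7% of all windows. The Plin5 window not printed held GGGCGG at 239 and 53 bases before its own start. The glucocorticoid receptor motif AGAACA occurred in none of these 3 windows and in 16.1% of all windows. The motif of FOXO factors (GTAAACA) was likewise in none of the 3 and in 3.17% of all windows. For the E-box, written CACGTG, the share of all windows was 6.02%, with none of the 3 here. The TATA box, written as TATAAA, was in none of the 3 and in 12.4% of all windows. A match is a description of the letters only.

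Before the members are described, 2 libraries need mention because they stood apart from others of their age. The library of young replicate 4 held 201 counts of Itgax (9.71 CPM), a gene of activated microglia, beside 1 to 5 counts in the other young mice and 52 to 99 in the old. Clec7a, another such gene, was at 7.29 CPM in this library, above every old mouse (4.25 to 5.78 CPM). With each of 8 markers of activated microglia weighing the same, their mean log2 CPM was 4.64 in this library, within the range of the old mice (4.31 to 4.82) and above the remaining young ones (2.44 to 2.62). Summed, these markers came to 1880 CPM, where the remaining young mice had 1400 to 1540 CPM and old mice 2060 to 2230 CPM. Most of this sum was Apoe, at 1740 CPM in this library. The library of old replicate 4 held the most RNA of blood and of skeletal muscle: 5 markers of blood summed to 409 CPM, where the remaining old mice had 128 to 262 CPM and the young ones 86.1 to 116 CPM. For 4 markers of muscle the sum was 24.9 CPM in this library, 4.16 to 9.19 CPM in the remaining old mice and 4.44 to 8.50 CPM in the young ones. The 5 neuronal markers summed to 4370 to 4870 CPM in young and 4410 to 4930 CPM in old mice. For the 5 astrocytic markers the sums were 4010 to 4390 CPM in young and 4090 to 4260 CPM in old mice. Of either list 0 markers passed the edgeR test. Fat tissue was near absent: adiponectin (Adipoq) had 0 to 3 counts, the adipocyte perilipin Plin1 0 to 7 and Cidec 0 to 2 counts per library, and 9 adipocyte markers together reached 0.830 to 1.17 CPM in young and 0.705 to 1.17 CPM in old mice.

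Plin4, a perilipin known from fat and muscle that coats nascent droplets through a long run of repeats, was at 4.76, 5.53, 5.91, 11.3 and 6.73 CPM in young replicates 1 to 5. In old replicates 1, 3, 4 and 5 it was at 38.7, 21.6, 46.5 and 27.5 CPM. Every old mouse was above every young mouse, and the highest young value belonged to replicate 4, the library with high microglial markers. The mean was 6.84 ± 2.57 CPM (SD, n = 5) in young and 33.6 ± 11.1 CPM (SD, n = 4) in old mice, a log2 fold change of 2.29 (SE 0.32), or 4.88-fold. Without young replicate 4 the young mean was 5.73 ± 0.822 CPM (SD, n = 4) and the log2 fold change 2.57. Without old replicate 4 the log2 fold change was 2.09. By signed log2 fold change, from the largest rise down, Plin4 ranked 18 of the 18492 genes tested.

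Markers of other tissues moved with Plin4, although the full order of blood and muscle markers matched only among the old mice. In the young mice Plin4 and the muscle markers (8.50 CPM) were highest in replicate 4, but the blood markers in replicate 5 (116 CPM). Among the old mice, the order of Plin4 (replicate 3 lowest, then 5, 1 and 4) was also the order of the blood markers, at 128, 170, 262 and 409 CPM, and of the muscle markers, at 4.16, 5.93, 9.19 and 24.9 CPM. In old replicate 3 the muscle markers were below those of every young mouse, while Plin4 was above every young mouse. Ckm and Myh4, which define skeletal muscle, reached at most 67 and 101 counts in any library, and Acta1 241 counts. In the edgeR test Myh4 had a log2 fold change of 2.28 (SE 0.82, adjusted p = 0.12). For Acta1 it was 0.55 (SE 0.46, adjusted p = 0.52) and for Mylpf 0.30 (SE 0.35, adjusted p = 0.65). Ckm was not among the genes tested. Of the 5 blood markers, whose summed level did not overlap between the ages, 3 passed, all higher in old mice (60.0%, beside 11.0% of all genes). Adipocyte markers stayed near 0 in all libraries, as given above. The 6 markers of mural cells of vessels went the other way among the old mice, with 73.5 CPM in replicate 4, 76.7 in replicate 1, 80.8 in replicate 3 and 81.1 CPM in replicate 5, and were lowest of all, at 63.6 CPM, in young replicate 4. Markers were averaged over the tested genes of each list on the log2 scale. Their age-centred correlation with Plin4 over the 9 mice was 0.754 for blood, 0.766 for muscle and -0.885 for mural markers. Without old replicates 3 and 4 it was 0.578 for blood and 0.725 for muscle. Mural markers gave -0.904 without young replicates 2 and 4. For markers of activated microglia, whose summed level also did not overlap between the ages, it was 0.703, and 0.437 without young replicates 3 and 4. Astrocyte markers gave 0.584, and 0.51 without young replicate 2 and old replicate 4. The 3 markers of oligodendrocyte precursors summed to 108 to 117 CPM in young and 92.9 to 99.7 CPM in old mice. Their correlation with Plin4 was -0.589. Of these markers only Gpr17 passed the edgeR test (log2 fold change -0.83, SE 0.065, adjusted p = 1.3e-06). Pdgfra had 0.05 (SE 0.055, adjusted p = 0.61) and Cspg4 -0.11 (SE 0.063, adjusted p = 0.27). The part of these cells and tissues in the Plin4 difference was not tested. Plin4 also overlaps Hdgfl2 on the opposite strand by 17 exonic bases, and Hdgfl2 had a log2 fold change of 0.10 (SE 0.043, adjusted p = 0.16).

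Among the other perilipins, Plin3, which moves between the cytosol and growing droplets, was at 20.8, 23.1, 24.9, 24.9 and 22.9 CPM in young replicates 1 to 5 and at 24.6, 28.2, 32.2 and 26.1 CPM in old replicates 1, 3, 4 and 5. Its ages overlapped only through old replicate 1, which lay just under the 2 highest young mice. The means were 23.3 ± 1.71 CPM (SD, n = 5) and 27.8 ± 3.29 CPM (SD, n = 4), a log2 fold change of 0.25 (SE 0.077) that was 0.17 without old replicate 4.

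Plin2, the widespread droplet coat whose protein is stabilised by lipid loading, was at 7.32, 7.52, 8.66, 7.49 and 8.03 CPM in the young and at 6.85, 7.12, 7.44 and 6.93 CPM in the old mice, in the same order of replicates. The old values lay at the low end of the young ones, and only old replicate 4 overlapped with them. Its log2 fold change was -0.14 (SE 0.093).

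Plin5, which links droplets to mitochondria in oxidative tissues, was the lowest of the 9 genes with only 12 to 33 counts per library. It was at 1.72, 1.77, 1.03, 1.50 and 0.988 CPM in young and at 1.06, 0.846, 1.75 and 0.880 CPM in old mice. The ages overlapped widely, and the counting error alone amounts to a coefficient of variation of 20.9% at its mean of 22.9 counts. The log2 fold change was -0.30 (SE 0.26), and it was -0.60 without old replicate 4. A difference of the size seen in its neighbour Plin4 was thus not seen in Plin5.

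**Figure D1:**
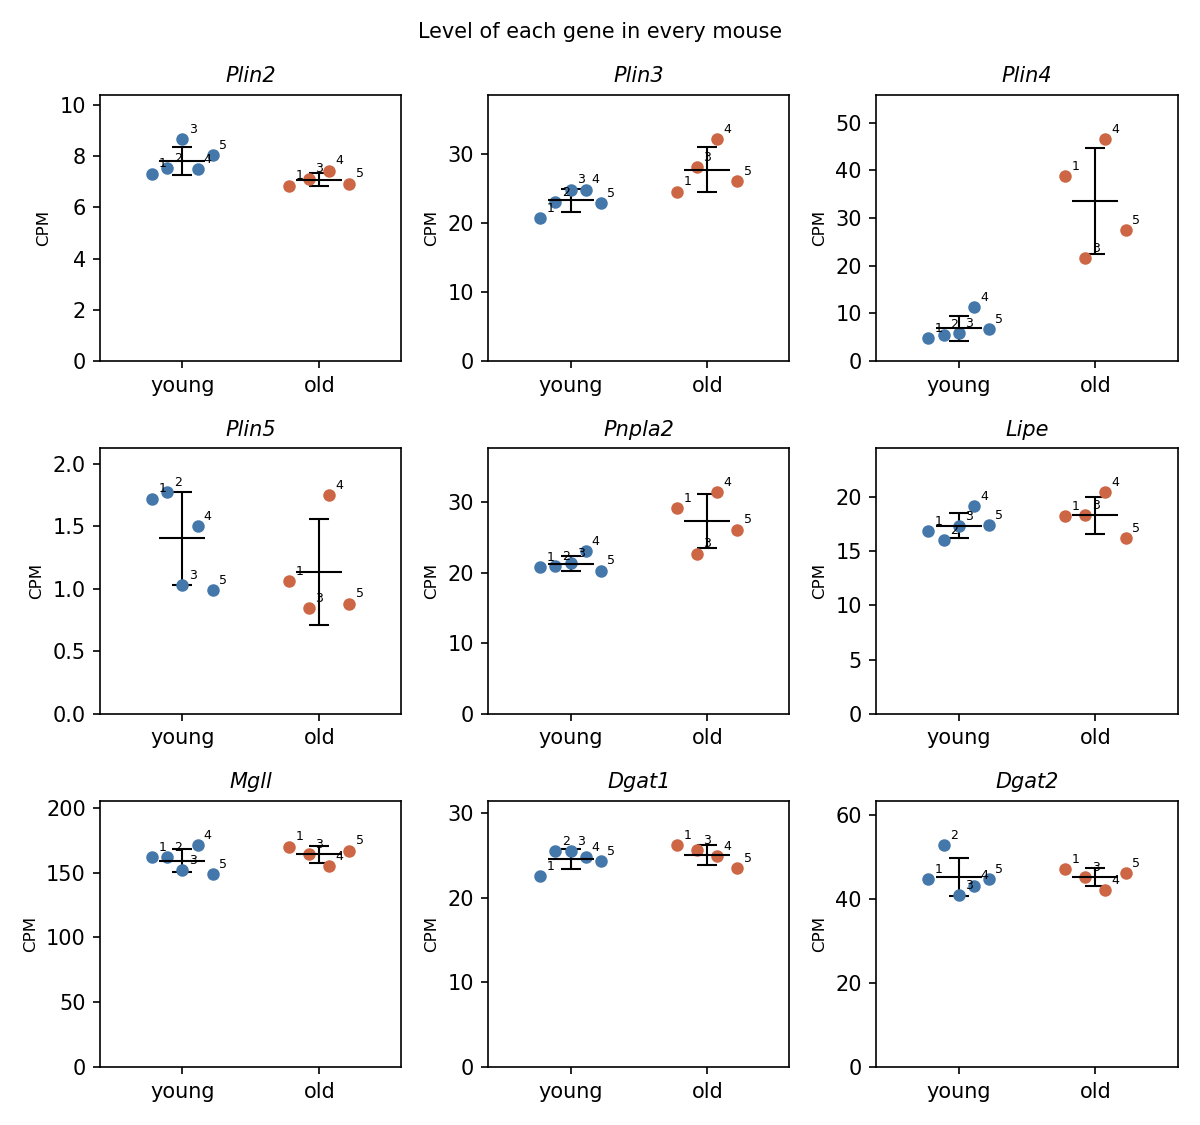
CPM of the 9 genes in every mouse on linear axes from 0, with the young mice on the left and the old on the right of each panel. Numbers are replicates, bars the mean and lines the SD; only Plin4 has ages that do not overlap, with 4.76 to 11.3 CPM in young and 21.6 to 46.5 CPM in old mice.

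Of the lipases, Pnpla2 was at 20.8, 20.9, 21.4, 23.1 and 20.3 CPM in young replicates 1 to 5 and at 29.2, 22.7, 31.4 and 26.1 CPM in old replicates 1, 3, 4 and 5. Old replicate 3 lay below young replicate 4, and the other old mice were above all the young. The means were 21.3 ± 1.09 CPM (SD, n = 5) and 27.3 ± 3.79 CPM (SD, n = 4), a log2 fold change of 0.37 (SE 0.079), or 1.29-fold. It was 0.40 without young replicate 4 and 0.29 without old replicate 4. The markers of muscle and blood moved with Pnpla2 as well: the old mice stood in the same order, and the age-centred correlation over the 9 mice was 0.940 for muscle and 0.842 for blood. Without the 2 mice farthest from the age means of each list, old replicates 3 and 4, these were 0.840 and 0.401. The part of these tissues in the Pnpla2 difference was not tested.

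Lipe was at 16.0 to 19.1 CPM with a median of 17.3 CPM in young mice, and at 18.2, 18.3, 20.4 and 16.2 CPM in old replicates 1, 3, 4 and 5. Its log2 fold change was 0.08 (SE 0.075). The gene shares 918 exonic bases with the antisense gene 4732471J01Rik, which had a log2 fold change of 0.04 (SE 0.12, adjusted p = 0.88), and without knowledge of the strand the reads of this stretch cannot be told apart.

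Mgll was the most abundant of the 9 genes, at 162, 162, 152, 171 and 149 CPM in young replicates 1 to 5. In the old replicates 1, 3, 4 and 5 it was at 170, 164, 155 and 167 CPM. The ages were interleaved, with a log2 fold change of 0.04 (SE 0.044). Mgll shares 167 exonic bases with the antisense gene Gm26588, which was at only 0.927 to 1.97 CPM.

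Both acyltransferases also overlapped between the ages. Dgat1, found in the endoplasmic reticulum, was at 22.6 to 25.5 CPM in young and 23.5 to 26.2 CPM in old mice, with a log2 fold change of 0.03 (SE 0.058). Dgat2, which also acts at the droplet surface, was at 41.0 to 52.8 CPM in young and 42.2 to 47.1 CPM in old mice, with a log2 fold change of -0.01 (SE 0.063). These were the smallest absolute log2 fold changes of the 9 genes.

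When the quasi-likelihood test of edgeR was run over all genes, with calls at an adjusted p under 0.05, 3 of the 9 genes (Plin3, Plin4 and Pnpla2) were called beside 11.0% of all genes tested. With an absolute log2 fold change over 0.58 in addition, 1 was called, higher in old mice, beside 2.50% of all genes, or 2.13% higher. The ages did not overlap for 1 of the 9, beside 12.6% of all genes. The genes were chosen on this very comparison, and nothing is read from these counts. Plin3 was not called without old replicate 4, nor without young replicates 1, 2 or 5 or old replicates 3 or 5, and it was also not called with upper quartile factors, without robust shrinkage or on any TPM scale. Pnpla2 was not called on log2(TPM + 1) or log2(TPM + 0.1), but was in each fit without 1 library. Plin4 was called in all of these fits.

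Set against genes of a like level, Plin4 had the largest spread within an age of the 9 genes. Its SD of log2 CPM within the ages was 0.479, larger than that of 99.2% of the 2274 genes of a like level, whose median SD was 0.120. The coefficient of variation was 37.6% among young and 33.2% among old mice, although counting error would give 5.50% at its mean count of 330.0. The young value rests largely on young replicate 4, which also enters the SD of 0.479. Without this mouse the young mean was 5.73 ± 0.822 CPM (SD, n = 4), against 6.84 ± 2.57 CPM (SD, n = 5) with it. Plin2 was the opposite, with an SD of 0.0813, larger than that of only 3.93% of 1756 genes of its level. The SD of Pnpla2 was 0.144 and that of Plin3 0.136, above 86.4% and 84.1% of genes of their level. Plin5, with few counts, had an SD of 0.402, above 73.4% of genes of its level. For Dgat2 and Lipe the SD was 0.112 each, above 84.6% and 55.7%, for Mgll 0.0706, above 63.7%, and for Dgat1 0.0701, above 21.3%.

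Levels of different genes were compared in TPM, a unit that takes gene length into account, and only within a mouse. In young mice the order of the mean TPM was Mgll, Dgat2, Plin3, Dgat1, Pnpla2, Lipe, Plin2, Plin4 and Plin5. Each gene exceeded the next in all 5 young mice except at the bottom, where Plin4 and Plin5 were level in 1 mouse and Plin4 was higher in 4 of 5. In old mice the order was Mgll, Dgat2, Plin3, Pnpla2, Dgat1, Plin4, Lipe, Plin2 and Plin5. Plin4 had passed both Lipe and Plin2 in all 4 old mice, and was 1.80 times the level of Lipe on average. Pnpla2 was above Dgat1 in 3 of 4 old mice, and Dgat2 above Plin3 in 3 of 4, so these neighbours did not differ beyond the spread between mice. The place of Plin3 depends on its length: the deposited TPM used 2159 bases, against 3786 exonic bases in the annotation used here. With the latter its mean fell to 16.2 TPM in young and 16.9 TPM in old mice, which put it in place 5, below Dgat1 in all 5 young and 3 of 4 old mice and below Pnpla2 in every mouse.

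Plin4 made up 6.16%, 6.54%, 6.58%, 11.9% and 8.02% of the summed TPM of the 4 perilipins in young replicates 1 to 5, and 32.6%, 19.4%, 31.0% and 24.7% in old replicates 1, 3, 4 and 5. On this scale Plin3 was the most abundant perilipin in every mouse, with a mean share of 72.6% ± 1.39 (SD, n = 5) in young and 60.9% ± 5.60 (SD, n = 4) in old mice. The share of Plin2 was 15.0% ± 1.17 (SD, n = 5) and 9.62% ± 1.05 (SD, n = 4). Plin2 thus ranked second among perilipins in the young and Plin4 in the old mice. With the annotated length of Plin3 the mean share of Plin4 was 11.4% in young and 36.3% in old mice, and that of Plin3 60.2% and 47.2%. Plin4 was then above Plin3 in old replicate 1, with 42.8% against 41.5%, and below it in the other 3 old mice.

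**Figure D2:**
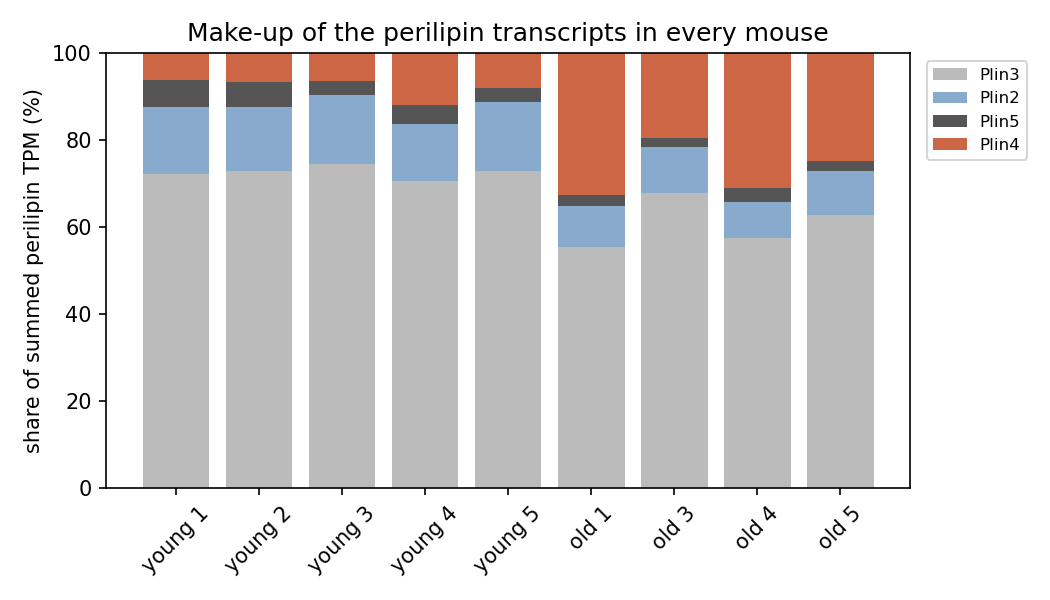
Share of each perilipin in the summed TPM of Plin2, Plin3, Plin4 and Plin5, in percent, 1 bar per mouse, with the gene lengths of the deposited TPM. The part of Plin4, at the top, is 6.16% to 11.9% in the young and 19.4% to 32.6% in the old mice.

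Ratios within a mouse need no scaling between libraries. The TPM ratio of Plin4 to Plin2 was 0.395 to 0.914 in young and 1.84 to 3.80 in old mice, and that of Plin4 to Plin5 was 0.996 to 2.72 and 9.21 to 13.1. The ratio of Plin3 to Plin2 was 4.62 to 5.40 in young and 5.84 to 7.03 in old mice, without overlap. With the annotated length of Plin3 these ratios were 2.64 to 3.08 and 3.33 to 4.01. The ratio of Pnpla2 to Lipe, the first over the next step of lipolysis, was 2.28 to 2.54 in young and 2.42 to 3.14 in old mice and overlapped. Dgat2 to Dgat1 was 1.59 to 2.05 in young and 1.68 to 1.94 in old mice.

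Plin4 and Pnpla2 varied together, less evenly in the young than in the old mice. Of the young mice, replicate 4 was highest in both genes. Replicate 5, next highest in Plin4 (6.73 CPM), was the lowest in Pnpla2 (20.3 CPM). After subtraction of the age mean, the log2 CPM of these genes correlated with r = 0.849 over the 9 mice, and in the old mice both followed the order of replicates 3, 5, 1 and 4. Plin4 also varied with Lipe (r = 0.730), Plin3 with Lipe (r = 0.661) and Plin2 with Plin3 (r = 0.643), while Plin2 and Mgll varied inversely (r = -0.803). Plin4 and its neighbour Plin5 gave r = 0.356. These values are descriptions over 9 points that share libraries, dissection and scaling.

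For each perilipin, the 3 genes most like it were sought among 14503 genes by the same age-centred correlation. Nearest to Plin4 were Pglyrp1 (r = 0.970), a peptidoglycan-binding protein of neutrophil granules, Ppp1r3g (r = 0.961), which directs protein phosphatase to glycogen, and Mapre2 (r = 0.954), a microtubule end-binding protein. Pglyrp1 was at 4.29 to 6.81 CPM in young and 6.70 to 11.9 CPM in old mice and rose with age (log2 fold change 0.85, SE 0.16, adjusted p = 0.0041), and so did Ppp1r3g (0.57, SE 0.15, adjusted p = 0.020). Mapre2 had a log2 fold change of -0.06 (SE 0.034, adjusted p = 0.31), so it varied with Plin4 between mice of an age without a difference between the ages that passed.

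Nearest to Plin2 were Lpin1 (r = 0.980), a phosphatidate phosphatase of triglyceride synthesis, Ankrd55 (r = 0.966) and Fa2h (r = 0.964), which hydroxylates the fatty acids of myelin lipids. Lpin1 was at 46.5, 48.9, 56.2, 48.8 and 53.1 CPM in young replicates 1 to 5, which is the same order of mice as for Plin2. Nearest to Plin3 were Tgoln1 (r = 0.947), Parg (r = 0.942) and Swt1 (r = 0.936), and nearest to Plin5 Smim7 (r = 0.977), Rbfa (r = 0.934) and 4931414P19Rik (r = 0.929). Without the 2 mice farthest from the age means these correlations were 0.847 to 0.976. The genes were picked for the highest r among 14503, so neither set of values is an independent check. The same search gave a best r of 0.952 for Dgat1 and 0.958 for Dgat2.

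Genes that respond to glucocorticoids were taken up with earlier results of these mice known, in which some of them differed between the ages, so the counts and correlations of this list are a description and no independent evidence. Of 17 such genes and receptors, 7 passed the test, 6 higher and 1 lower in old mice (41.2%, beside 11.0% of all genes, 6.09% higher and 4.89% lower). Their median log2 fold change was 0.22, beside -9.2e-05 over all genes. Fkbp5, a co-chaperone that restrains the glucocorticoid receptor, was at 29.2, 33.5, 29.4, 39.3 and 33.1 CPM in young replicates 1 to 5 and 62.5, 52.6, 69.5 and 54.6 CPM in old replicates 1, 3, 4 and 5, and it rose with age (log2 fold change 0.86, SE 0.10, adjusted p = 0.00078). As with Plin4, replicate 4 was the highest of the young, and the old mice stood in the order 3, 5, 1 and 4. The age-centred correlation of Fkbp5 with Plin4 was 0.932, and that of the mean of the 17 genes with Plin4 0.825.

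Sult1a1, a sulfotransferase, rose from 5.20 to 7.66 CPM in young to 8.96 to 14.2 CPM in old mice (log2 fold change 0.93, SE 0.15, adjusted p = 0.0020), and Nfkbia, the inhibitor of NF-kappaB, rose by 0.35 (SE 0.071, adjusted p = 0.0045). The phosphatase Dusp1 fell (log2 fold change -0.34, SE 0.092, adjusted p = 0.038). Zbtb16, a transcription factor, and the kinase Sgk1, picked after their values were seen, rose 2.01-fold (adjusted p = 0.0088) and 1.73-fold (adjusted p = 0.039). They did not share the order of Plin4 among the old mice, which was 1, 5, 3 and 4 for Zbtb16 and 5, 1, 3 and 4 for Sgk1. Their age-centred correlations with Plin4 were 0.707 (Spearman's rho 0.367) and 0.638 (rho 0.567). The receptor gene Nr3c1 itself had a log2 fold change of 0.05 (SE 0.038, adjusted p = 0.50), and Tsc22d3 and Per1, a pair of widely used response genes, had 0.22 (SE 0.13, adjusted p = 0.34) and 0.08 (SE 0.047, adjusted p = 0.29). Without young replicate 2 or 3 the count passing was 4, and Dusp1 did not pass without young replicates 1, 2 or 3 or old replicates 1, 3 or 4.

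**Figure D3:**
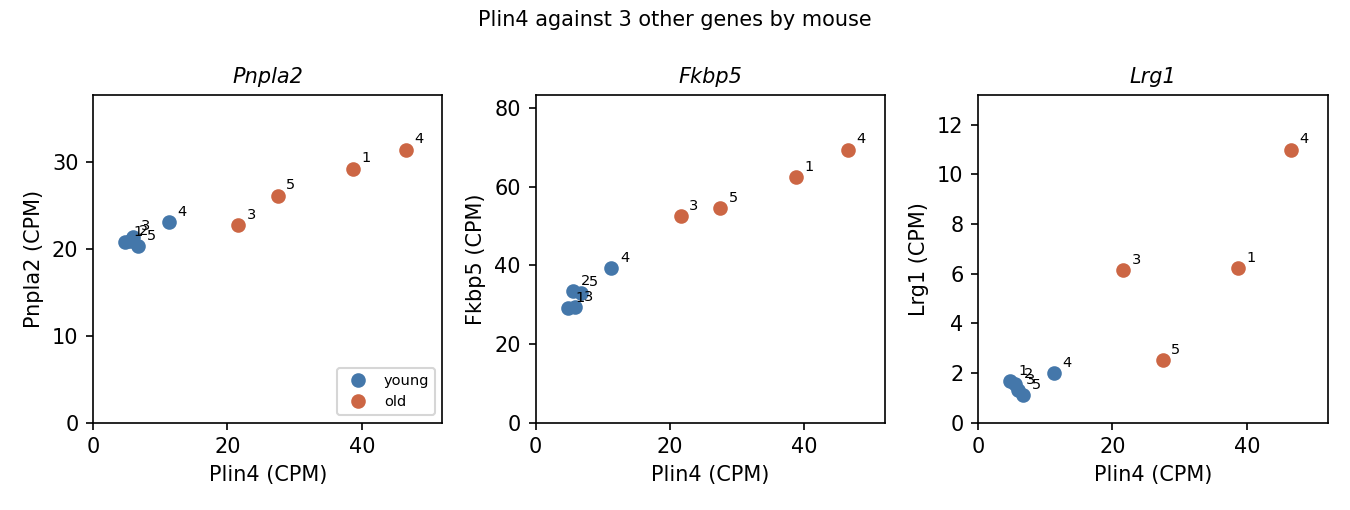
CPM of Pnpla2, Fkbp5 and Lrg1 (vertical) against CPM of Plin4 (horizontal) on linear axes, 1 point per mouse with its replicate number. For Pnpla2 and Fkbp5 the old mice stand in the order 3, 5, 1 and 4 on both axes, and Lrg1 breaks this order in old replicate 5, at 2.52 CPM.

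Lipolysis depends on partners of Pnpla2, and none of the 3 examined passed the test of edgeR. Abhd5, the coactivator of Pnpla2, was at 13.0 to 15.3 CPM in young and 11.2 to 14.2 CPM in old mice (log2 fold change -0.07, SE 0.083, adjusted p = 0.63). Its inhibitor G0s2 was at 3.15 to 4.69 CPM and 3.39 to 5.03 CPM (0.11, SE 0.16, adjusted p = 0.71), and the inhibitor Hilpda at 2.32 to 3.34 CPM and 1.81 to 2.76 CPM (-0.20, SE 0.18, adjusted p = 0.53). Of 14 cofactors and further lipases, 11 could be tested and 2 passed, both lower in old mice (18.2%, beside 4.89% of all genes lower), with a median log2 fold change of -0.01. Pnpla3, a close relative of Pnpla2, fell from 21.4 ± 2.41 CPM (SD, n = 5) to 16.1 ± 2.05 CPM (SD, n = 4), a log2 fold change of -0.41 (SE 0.095, adjusted p = 0.012), opposite in sign to Pnpla2. The lipase Ddhd2, known for triglyceride hydrolysis in neurons, fell by 0.13 (SE 0.038, adjusted p = 0.028), and did not pass without young replicates 1, 3 or 5 or old replicates 3 or 5, which left 1 gene of the list. Lysosomal acid lipase (Lipa) had a log2 fold change of 0.05 (SE 0.091, adjusted p = 0.78).

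In the list of glycerolipid synthesis, which leaves out Dgat1 and Dgat2, 3 of 16 genes tested passed, all lower in old mice. This share was 18.8%, beside 11.0% of all genes in either direction and 4.89% lower. The median log2 fold change was -0.01. Agpat1 and Agpat5, which acylate lysophosphatidic acid, fell by 0.17 (SE 0.043, adjusted p = 0.016) and 0.21 (SE 0.052, adjusted p = 0.016), and Tmem68, an acyltransferase of the endoplasmic reticulum, by 0.21 (SE 0.054, adjusted p = 0.019). Agpat5 did not pass without old replicate 1 or 3, and Tmem68 not without young replicate 1 or old replicate 4 or 5. The first enzyme of the pathway, Gpam, had a log2 fold change of 0.10 (SE 0.048, adjusted p = 0.21), and Lpin1 0.01 (SE 0.057, adjusted p = 0.93).

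Of the 19 tested genes of droplet assembly and coat, 3 passed, 2 higher and 1 lower (15.8%, beside 11.0% of all genes), with a median log2 fold change of -0.02. Hsd17b11, a droplet-bound dehydrogenase, was at 34.5 to 35.7 CPM in every young and 41.9 to 43.4 CPM in every old mouse, and rose by a log2 fold change of 0.29 (SE 0.043, adjusted p = 0.00040). Its groups were far tighter than those of Plin4, and its age-centred correlation with Plin4 was 0.0645. Mettl7a1, a droplet-associated methyltransferase-like protein, rose by 0.25 (SE 0.063, adjusted p = 0.016). Without old replicate 4 its log2 fold change was 0.20 and did not pass (adjusted p = 0.061). Seipin (Bscl2), which organises droplet formation at the endoplasmic reticulum, fell by 0.18 (SE 0.042, adjusted p = 0.012).

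In the list of uptake, activation and binding of fatty acids every gene that passed was lower in old mice. Of 14 genes reported here, 5 passed (35.7%, beside 11.0% of all genes in either direction and 4.89% lower). The median log2 fold change was -0.14. The fatty acid transporter Slc27a4 fell from 96.4 ± 1.75 CPM (SD, n = 5) to 81.3 ± 3.02 CPM (SD, n = 4), a log2 fold change of -0.25 (SE 0.037, adjusted p = 0.00051). The acyl-CoA synthetase Acsl6 and the lipoprotein receptor Vldlr fell by 0.16 (SE 0.035, adjusted p = 0.0087) and 0.17 (SE 0.040, adjusted p = 0.012). The other falls were those of Fabp5 and Fabp3, which carry fatty acids within cells. The summed level of the list was 1110 to 1130 CPM in young and 1040 to 1080 CPM in old mice. Without any one of 5 libraries (young replicates 1, 3 and 5, old replicates 4 and 5), 3 genes of the list passed.

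In fatty acid oxidation and its PPAR regulators few genes passed. Of 26 genes, 2 passed, both higher (7.69%, beside 11.0% of all genes in either direction and 6.09% higher). The median log2 fold change was 0.06. Ech1, an enzyme of unsaturated fatty acid oxidation, rose by 0.28 (SE 0.060, adjusted p = 0.0061). Pdk4, a kinase that limits glucose oxidation, rose by 0.44 (SE 0.13, adjusted p = 0.042), and did not pass without any one of 7 libraries (young replicates 1 to 5, old replicates 3 and 4), which left 1 gene of the list except without young replicate 5. The nuclear receptors Ppara and Pparg had log2 fold changes of 0.13 (SE 0.16, adjusted p = 0.67) and 0.38 (SE 0.17, adjusted p = 0.18). Calls of the lists depended on the unit: in limma's test on log2(TPM + 1), where the median log2 fold change of all genes was -0.14, only Fkbp5, Sult1a1 and Lrg1 passed of the genes named by rule from the lists and the neighbours, and without 4 ribosomal RNA-like genes that take a varying part of the TPM all of them passed but Agpat5, Ddhd2, Pdk4, Dusp1 and Rplp2.

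**Figure D4:**
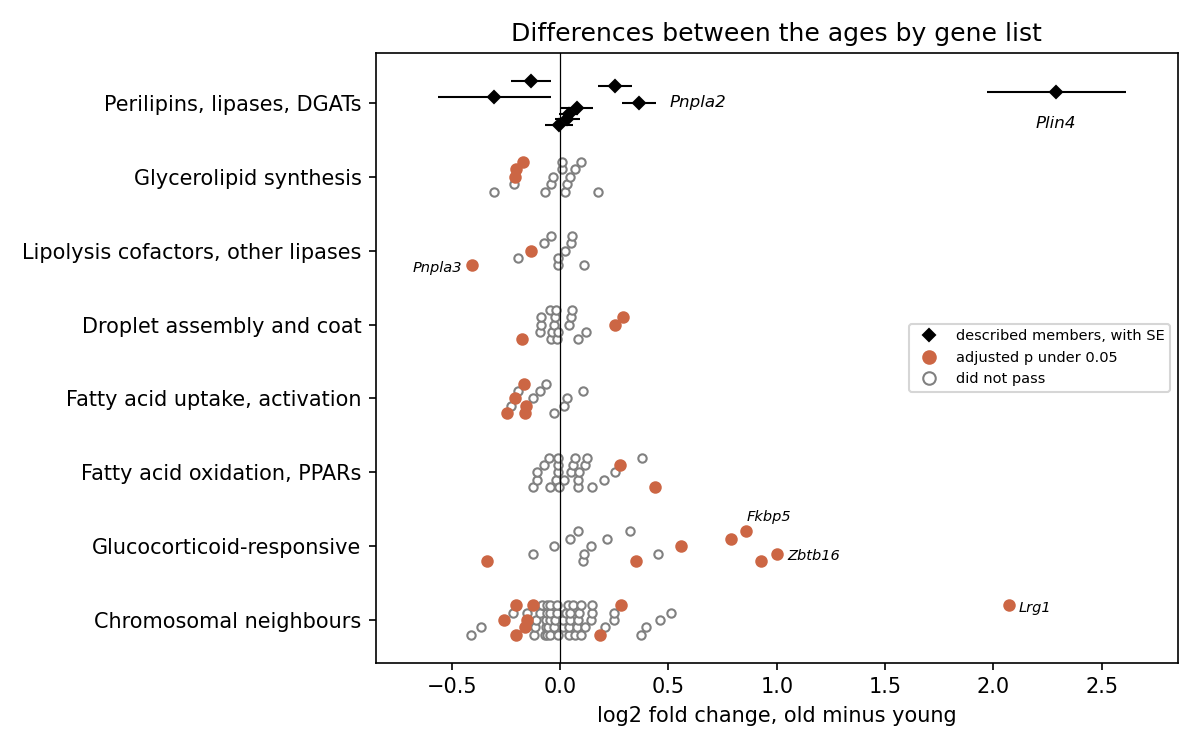
Log2 fold change between old and young mice on the horizontal axis, with 1 row per gene list and 1 point per gene. Diamonds with SE bars are the 9 described genes, filled points passed the test with an adjusted p under 0.05 and open points did not; the uptake list lies mostly left of 0 with a median of -0.14 and the glucocorticoid list mostly right with a median of 0.22.

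Around the members on the chromosomes, 60 of 88 genes within 100 kb were tested, and 9 passed, 3 higher and 6 lower in old mice (15.0%, beside 11.0% of all genes, 6.09% higher and 4.89% lower), with a median log2 fold change of -0.01. Lrg1, a secreted leucine-rich glycoprotein, lies 2082 bases upstream of Plin5. Of the tested neighbours of the 3 chromosome 17 perilipins, it alone passed the test with a higher level in old mice. It was at 1.67, 1.55, 1.31, 1.98 and 1.11 CPM in young replicates 1 to 5 and 6.21, 6.14, 11.0 and 2.52 CPM in old replicates 1, 3, 4 and 5, without overlap, and rose by a log2 fold change of 2.07 (SE 0.39, adjusted p = 0.011). On either side of Plin5, with its log2 fold change of -0.30, the levels in old mice were thus 4.88-fold (Plin4) and 4.19-fold (Lrg1) those in young mice. The age-centred correlation of Plin4 and Lrg1 was 0.467, and old replicate 5 had the lowest Lrg1 of the old mice but not the lowest Plin4. Lrg1 is also known from neutrophils and vessel walls, and 3 of the 5 blood markers passed the test, all higher in old mice; their part in the Lrg1 difference was not tested.

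Of the 16 tested neighbours of Plin3, Plin4 and Plin5 that are no members, 4 passed, 1 higher and 3 lower (25.0%, beside the same 11.0%), with a median log2 fold change of -0.06. The peptidase Dpp9 between Plin5 and Plin3 fell by 0.26 (SE 0.040, adjusted p = 0.00050). Near Pnpla2, the tetraspanin Tspan4 rose by 0.28 (SE 0.065, adjusted p = 0.0098) and the ribosomal protein gene Rplp2 by 0.18 (SE 0.047, adjusted p = 0.019, and 0.145 with adjusted p = 0.061 without old replicate 1), whereas Slc25a22 and Cend1 fell by 0.20 (SE 0.039, adjusted p = 0.0028) and 0.16 (SE 0.036, adjusted p = 0.0075).

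**Figure D5:**
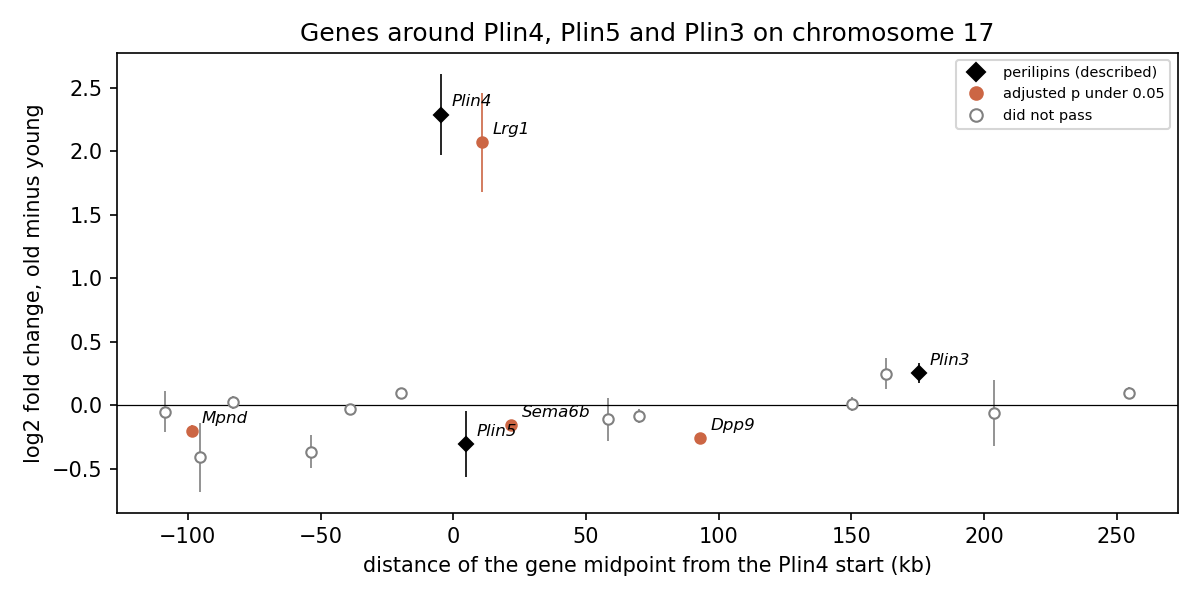
Log2 fold change between old and young mice, with SE bars, of tested genes around Plin4, Plin5 and Plin3, against the distance of each gene's midpoint from the Plin4 start in kb. Plin4 at 2.29 and Lrg1 at 2.07 stand above all others, with Plin5 between them at -0.30.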

How the data were processed

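RNA-seq of whole brain was analysed for 5 young and 4 old male C57BL/6J mice. After trimming, the authors mapped reads to GRCm38 with STAR, assigned uniquely mapping exonic reads to genes with featureCounts, and deposited raw counts per Ensembl gene. The authors also deposited TPM values, computed with gene lengths that the sources used here do not name, and a table of normalized counts that was not used. Strand-specific counting is stated only for strand-specific libraries, so overlapped genes are marked. Each table held 1 further column, which matched no sample and was not used. Totals ranged from 14229259 to 21150439 counts per library.

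From the counts, 18492 genes passed edgeR's filterByExpr (minimum count 10, minimum total 15) and were normalized with TMM. Old and young mice were set against each other in the quasi-likelihood test of edgeR (robust), with Benjamini-Hochberg adjustment over all these genes. SEs were derived from the log2 fold change and its F statistic, and log2 CPM used a prior count of 2. The software was DESeq2 1.42.0, edgeR 4.0.16 and limma 3.58.1 in R 4.3.3, and pandas 2.3.3 in Python 3.11.15. Positions and symbols came from GENCODE M21, and promoters from RefSeq. On simulated counts for 18233 genes, with 200 changed by a log2 fold change of 1, the test called 91.5% of them with 6.15% false calls, and 0 genes when none was changed.

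The members, gene lists and motifs were chosen with earlier results of these data known. Named were all members, up to 3 rises and 3 falls of lowest p per list among genes passing, and the 3 genes most like each perilipin. Others were chosen after their values were seen. Of the uptake list 1 gene is not reported here. Alternatives were other size factors, filters, thresholds and tests, log2(TPM + 1) and log2(TPM + 0.1), the replicate block and each mouse left out. The fit without robust shrinkage and TPM without 4 ribosomal RNA-like genes were added after the data were seen. Replicates are separate mice, and libraries of an age differed by more than sampling noise (lowest chi-square, divided by its degrees of freedom, 3.71).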

Additional observations from a re-analysis of the deposited data

Results flagged for a closer look

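In 2 of 32 groups looked at, 1 old mouse stood far from the others of its age, beside 1.6 that chance would flag at 1 in 20 groups. Both are old replicate 4. Its mean log2 CPM over the genes of glycerolipid synthesis was 4.61, beside 4.49 to 4.51 in the other old mice, a gap of 0.857 of the range of the group. Its mean log2 CPM over the genes of fatty acid oxidation was 4.21, beside 4.12 to 4.13, a gap of 0.937 of the range. This library also held the highest levels of blood and skeletal muscle markers, whose part in these values was not tested. Plin4 in young replicate 4 was not flagged.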

How the results depend on the processing

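On log2(TPM + 1), the median log2 fold change of all genes shifted to -0.14 and fewer genes passed (594, and 600 on log2(TPM + 0.1), beside 2031). With 4 ribosomal RNA-like genes, which took 11.6% to 45.4% of the TPM of a library, left out, the median was -0.01 and 1584 genes passed. On log2(TPM + 1) and log2(TPM + 0.1) the log2 fold changes were -0.26 and -0.30 for Plin2 and 0.0796 and 0.0826 for Plin3. For Plin4 they were 1.82 and 2.1, and for Plin5 -0.28 and -0.46. They were 0.18 and 0.19 for Pnpla2, -0.0798 and -0.0885 for Lipe, and -0.12 and -0.12 for Mgll. Dgat1 had -0.13 and -0.13, and Dgat2 -0.16 and -0.16. The signs of Lipe, Mgll and Dgat1 thus flipped, where the median of all genes was -0.14 and -0.16. Without the ribosomal RNA-like genes Plin4 had 2.05 on log2(TPM + 1). On either TPM scale 0 genes of glycerolipid synthesis, lipolysis, droplet assembly, uptake and oxidation passed limma's test (3, 1, 1, 5 and 0 at an unadjusted p under 0.05 on log2(TPM + 1), with 4 for uptake on log2(TPM + 0.1)), beside 4 of the glucocorticoid list and 1 neighbour. Without the ribosomal RNA-like genes, 1 gene each of lipolysis and oxidation passed. With upper quartile factors 1 gene of oxidation passed, and at an adjusted p under 0.01 873 genes passed in all; apart from the fewer genes or stricter limit these entail, the cause was not tested. Leaving out each mouse gave 1516 to 2034 genes passing, and 2 to 3 for glycerolipid synthesis, 1 to 3 for lipolysis, 2 to 3 for droplet assembly, 3 to 4 for uptake, 1 to 3 for oxidation, 4 to 7 for the glucocorticoid list and 7 to 11 for neighbours. The log2 fold changes ranged from -0.16 to -0.10 for Plin2, 0.17 to 0.31 for Plin3, 2.09 to 2.57 for Plin4, -0.60 to -0.20 for Plin5, 0.29 to 0.44 for Pnpla2, 0.02 to 0.13 for Lipe, 0.02 to 0.07 for Mgll, 0.01 to 0.06 for Dgat1 and -0.04 to 0.06 for Dgat2. Same-numbered mice of the ages did not clearly deviate together, with correlations of 0.17, -0.118, 0.0884 and -0.0243. Of 4 young mice, 2 correlated best with their own number. With so few mice these values can neither show nor exclude a pairing by number. The replicate block gave 1828 genes, a Plin4 log2 fold change of 2.24 and 1 gene of lipolysis. Of the list genes named by rule, Fkbp5, Sult1a1 and Lrg1 passed under every alternative and the others did not pass on the TPM scales. The depth limits Plin5, at 12 to 33 counts.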
